A study of Mus musculus with 6 samples.

Results

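The 10 genes described here mark or act in the endothelial cells that line blood and lymphatic vessels, and they were followed in whole skin of mice with and without JunB in the epidermis. They are Pecam1, Cdh5, Kdr, Tek, Vwf, Sele, Selp, Lyve1, Prox1 and Flt4, taken by symbol from the deposited table of 23951 genes, and all 10 were found in it. RNA sequencing covered 3 control mice, labelled JunB +/+, and 3 JunBΔep mice, labelled JunB dep, which were littermates of strain C57Bl/6 aged 6 to 7 months by the labels. In JunBΔep mice JunB is deleted in cells that express keratin 5, a keratinocyte gene, so the deletion does not target vessels. The labels name no treatment, and the mutant skin was taken from lesions. Each library is whole skin of 1 mouse and is named here by genotype and the replicate number of its label, 0, 1 or 2.

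Endothelial cells hold together through PECAM-1 and VE-cadherin, the products of Pecam1 and Cdh5, and they read vascular growth signals through receptor kinases such as VEGFR2 (Kdr), VEGFR3 (Flt4) and TIE2 (Tek). In inflamed skin, venules display E-selectin and P-selectin (Sele and Selp), on which leukocytes roll before they leave the blood. Lymphatic vessels are set apart by the transcription factor PROX1, the hyaluronan receptor LYVE-1 and VEGFR3.

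Values are FPKM (sequenced fragments divided by transcript length in kilobases and by 1000000 mapped fragments), used as the authors deposited them, and they are given in the order control replicates 0, 1 and 2, then JunBΔep replicates 0, 1 and 2. The 6 libraries summed to between 481078 and 630363 FPKM, and their read numbers are unknown. Junb itself gave 59.3, 72.4 and 56.9 FPKM in the controls, and JunBΔep replicates 1 and 2 were lower, with 42.8 and 28 FPKM. The library labelled JunBΔep replicate 0 held 129.6 FPKM of Junb and so exceeded the controls. That is not the direction of its label, but whole skin also holds cells outside the deletion. Junb of whole skin therefore cannot check the label, and the label was not tested otherwise. Every direction given below rests on these labels. Libraries also stood apart in their cell markers. In the library labelled JunBΔep replicate 0, 5 of 8 neutrophil markers exceeded every control (37.4% of all genes), among them S100a8 at 24456 FPKM against 8.15 to 744 FPKM in the controls. The other 7 neutrophil markers summed to 519 FPKM in the library labelled JunBΔep replicate 0, against 892, 18.0 and 181 FPKM in control replicates 0, 1 and 2. That sum takes S100a9 as 0, while S100a9 gave 698 FPKM of the sum in control replicate 0. Krt14, Krt16, Krt6a, Krt75 and Mrgprb3 were listed at 0 in the same JunBΔep library. Whether these zeros are missing values cannot be told without read counts, so the sums cannot be set against each other. Camp (4.37 FPKM) and Ltf (4.66 FPKM) lay below the 113 and 53.4 FPKM of control replicate 0. Further, hepatocyte markers were high in control replicate 0, where Alb stood at 823 FPKM. The 15 skeletal muscle markers were all lower in every JunBΔep mouse than in every control, a pattern of 9.16% of all genes tested, and 11 of them passed the test, as 1.38% of all genes did. All 11 calls were lost when any 1 control or JunBΔep replicate 1 was left out, when both replicates 0 were left out, and when replicate numbers or series of sample title numbers entered the fit as a block, and 4 markers passed without JunBΔep replicate 0. The summed keratinocyte markers ran from 8274 to 13879 FPKM over the controls. JunBΔep replicate 1 held 8254 FPKM of them, and JunBΔep replicate 2 held 10461 FPKM. For the library labelled JunBΔep replicate 0 the sum was 13125 FPKM with Krt14 taken as 0, which may be a missing value. The keratinocyte sum of that library therefore cannot be set against the others. In whole skin, fewer endothelial cells and less RNA per endothelial cell cannot be told apart.

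Over the 3 controls the order of mean levels was Pecam1 (26.2 FPKM), Cdh5 (13), Tek (6.73), Vwf (5.56), Lyve1 (4.94), Kdr (4.46), Selp (1.85), Flt4 (1.36), Sele (0.954) and Prox1 (0.0737). FPKM divides by transcript length, so these levels can be set beside each other. The ranges of Tek and Vwf, of Vwf and Lyve1, and of Lyve1 and Kdr overlapped between mice, as did those of Selp and Flt4 and of Flt4 and Sele. Pecam1 lay above Cdh5, Cdh5 above Tek, Kdr above Selp, and Sele above Prox1 in each control. Prox1 was the one member under the filter of a mean of 0.1 FPKM, and the other 9 were tested.

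None of the 9 tested members passed the test for a difference between JunBΔep and control mice. The test was limma on log2(FPKM + 0.5) over 17021 genes, two-sided and adjusted by Benjamini-Hochberg, at a threshold of 0.05, and 0 of 9 members passed, where 1.38% of all genes tested did. At an unadjusted p under 0.05, 0 members were called by limma, against a background of 1.43% of genes higher and 6.13% lower in JunBΔep mice. The log2 fold change was above 0 for 3 members and below 0 for 6, with a median of -0.12, beside 0.03 over all genes tested. No member had all 3 JunBΔep mice above all 3 controls, a pattern of 5.62% of genes tested, or all 3 below, a pattern of 9.16%. A p that misses the threshold does not show that the groups were alike. The 95% interval of the log2 fold change ran from -1.26 to 1.02 for Pecam1 and from -1.87 to 3.47 for Sele, and an exact permutation test of 3 mice against 3 cannot give a p below 0.1.

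The JunBΔep mice differed among themselves, with a larger SD of FPKM than the controls for every member but Prox1. JunBΔep replicate 1 was the lowest of the 6 mice for all 10 members, and it lay below every control for 9 of the 9 tested, where 33.1% of all genes tested did so. It lay above every control for 0 of 9, against 34.5% of all genes. JunBΔep replicate 2 was above every control for 5 of 9 members (25.1% of all genes) and below every control for none (21.3% of all genes), and it was the highest of the 6 for Pecam1, Cdh5, Kdr and Vwf. The library labelled JunBΔep replicate 0 was above every control for 4 of 9 members (37.4% of all genes) and below every control for 3 of 9 (39.3% of all genes). The 4 above were Sele, Selp, Lyve1 and Flt4, and the 3 below were Cdh5, Kdr and Tek. These counts describe single mice and carry no test.

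**Figure D1:**
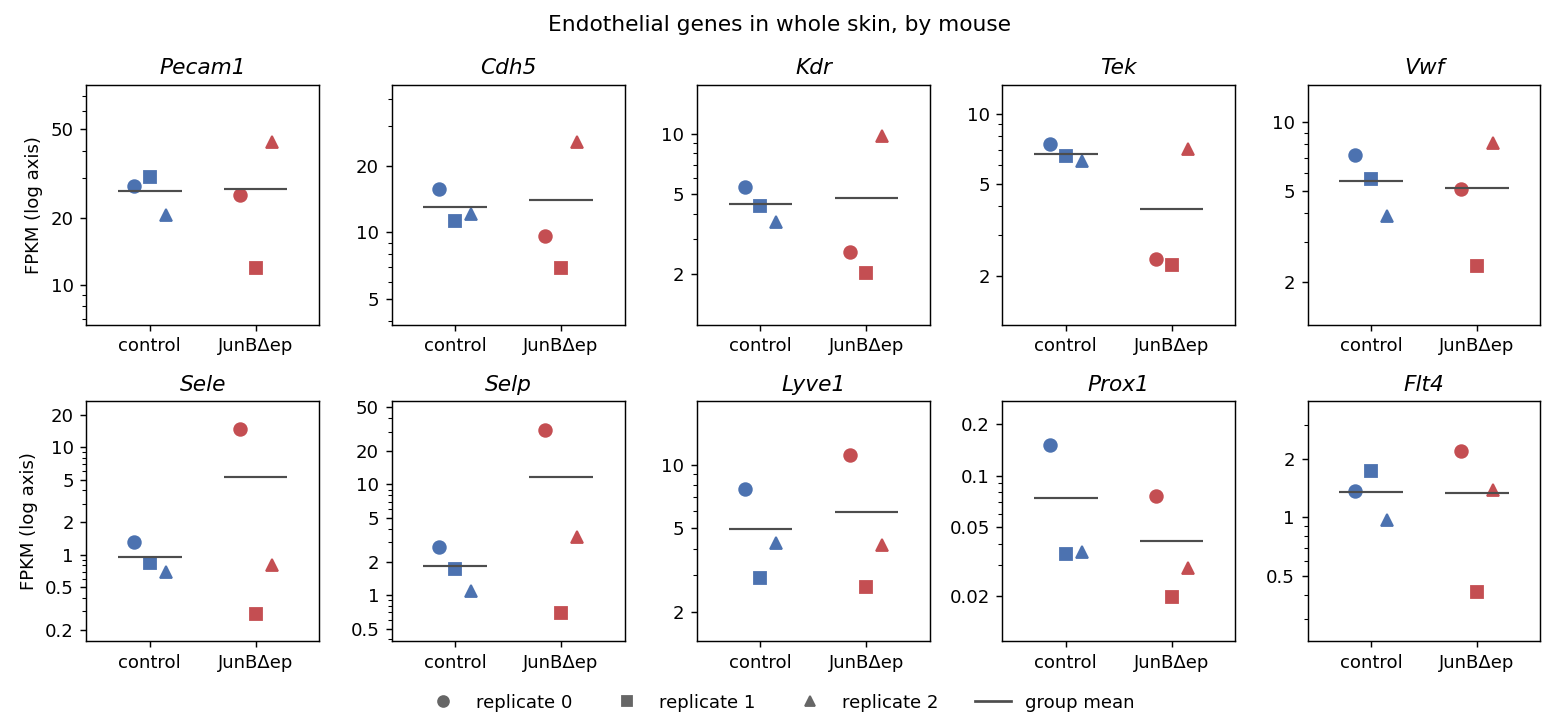
FPKM of the 10 endothelial genes on log axes, 1 point per mouse and a line at each group mean (3 control and 3 JunBΔep mice). JunBΔep replicate 1 (square) is the lowest point in every panel, JunBΔep replicate 2 (triangle) tops Pecam1, Cdh5, Kdr and Vwf, and the library labelled JunBΔep replicate 0 (circle) stands alone for Sele at 14.8 FPKM and Selp at 31.2 FPKM.

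Among the genes of all endothelium, Pecam1, an adhesion molecule at the junctions between endothelial cells that platelets and leukocytes also carry, was at 27.6, 30.4 and 20.6 FPKM in the controls against 25.3, 11.9 and 43.8 FPKM in JunBΔep skin. The JunBΔep mice lay on both sides of the control range, and the log2 fold change was -0.12 ± 0.47 (SE, adjusted p = 0.933). Cdh5, which encodes the cadherin of endothelial adherens junctions, was at 15.7, 11.2 and 12.1 FPKM in the controls against 9.59, 6.91 and 25.6 FPKM in JunBΔep skin. Here the lower pair of JunBΔep mice lay under all controls and JunBΔep replicate 2 above them, with a log2 fold change of -0.10 ± 0.48 (SE, adjusted p = 0.949). Vwf, which encodes the von Willebrand factor stored by endothelial cells and platelets, was at 7.16, 5.62 and 3.89 FPKM in the controls against 5.10, 2.35 and 8.07 FPKM in JunBΔep skin. Its groups overlapped as well (log2 fold change -0.20 ± 0.45 SE, adjusted p = 0.888). Kdr, the main receptor for VEGF-A on blood endothelium, was at 5.42, 4.35 and 3.62 FPKM in the controls against 2.59, 2.02 and 9.71 FPKM in JunBΔep skin. JunBΔep replicate 2 was 2.18 times the control mean for Kdr and JunBΔep replicate 1 was 0.453 times it (log2 fold change -0.19 ± 0.55 SE, adjusted p = 0.913). The JunBΔep mean of Kdr was 4.77 FPKM against 4.46 FPKM in the controls, so the difference of means and the log2 fold change had opposite signs, as they did for Pecam1 and Cdh5.

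These 4 genes kept similar proportions to each other in most mice. Vwf was 0.259, 0.185 and 0.189 times Pecam1 in the controls and 0.201, 0.197 and 0.184 times Pecam1 in the JunBΔep mice. Kdr was 0.196, 0.143 and 0.175 times Pecam1 in the controls and 0.102, 0.170 and 0.222 times Pecam1 in the JunBΔep mice. The groups overlapped for both ratios, and the lowest ratio of Kdr to Pecam1 belonged to the library labelled JunBΔep replicate 0. Cdh5 was 0.569, 0.368 and 0.588 times Pecam1 in the controls and 0.379, 0.580 and 0.586 times Pecam1 in the JunBΔep mice, again with overlap.

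The 32 other blood endothelial genes, a list of junction, receptor and transcription factor genes such as Plvap, Egfl7, Esam and Erg, were read beside the members. None of the 32 passed the limma test, 0 had an unadjusted p under 0.05 in the direction of higher expression (1.43% of all genes) and 1 in the direction of lower expression (6.13%), and their median log2 fold change was -0.23. The library labelled JunBΔep replicate 0 lay below every control for 19 of the 32 (39.3% of all genes) and above every control for 5 (37.4%). JunBΔep replicate 1 lay below every control for 28 (33.1% of all genes) and above for 0 (34.5%), and JunBΔep replicate 2 lay above every control for 21 (25.1%) and below for 2 (21.3%). The median difference from the control mean, on the log2(FPKM + 0.5) scale, was 0.08, 0.24 and -0.28 in the controls and -0.52, -0.85 and 0.61 in the JunBΔep mice. The gene at an unadjusted p under 0.05 was Cd34, a sialomucin of capillary endothelium that other skin cells, among them hair follicle stem cells and fibroblasts, also make. It was at 116, 135 and 86.4 FPKM in the controls against 50.7, 45.1 and 78.4 FPKM in JunBΔep skin, so its groups did not overlap, and its log2 fold change of -0.96 ± 0.28 (SE) missed the limma threshold (adjusted p = 0.340). Plvap, the protein of endothelial fenestrae and the second most abundant gene of the list, was at 50.7, 65.8 and 31.0 FPKM in the controls against 41.9, 17.4 and 57.9 FPKM in JunBΔep skin, with overlap.

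**Figure D2:**
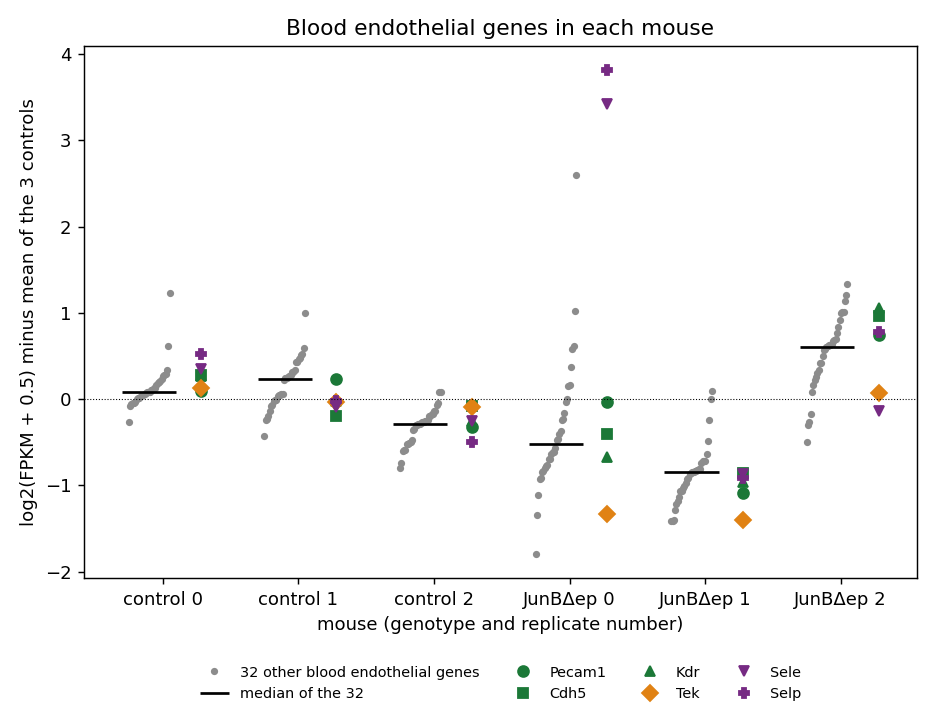
Difference of log2(FPKM + 0.5) from the mean of the 3 controls (vertical axis) in each of the 6 mice for the 32 other blood endothelial genes (grey points, with their median as a line) and for Pecam1, Cdh5, Kdr, Tek, Sele and Selp. The medians of the 32 genes lie at -0.52, -0.85 and 0.61 in the JunBΔep mice, Tek lies below that line in each of them, and Sele (3.42) and Selp (3.81) lie far above it in the library labelled JunBΔep replicate 0.

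Tek encodes TIE2, the receptor of the angiopoietins, which keeps vessels quiescent when bound by ANGPT1. Tek was at 7.37, 6.54 and 6.28 FPKM in the controls against 2.36, 2.23 and 7.06 FPKM in JunBΔep skin. The JunBΔep pair of replicates 0 and 1 stood at 0.351 and 0.331 times the control mean, below all controls, and JunBΔep replicate 2 stood inside the control range. The log2 fold change of -0.89 ± 0.43 (SE, 95% interval -1.93 to 0.15) had the smallest p among the members and missed the limma threshold (adjusted p = 0.719). Without JunBΔep replicate 2 the log2 fold change was -1.37 for Tek (adjusted p = 0.0611) and -0.82 for Kdr (adjusted p = 0.218). Then 2 of 9 members had an unadjusted p under 0.05, both lower, where 10.8% of all genes tested in that fit were lower and 7.54% higher at that level. Of the 32 other blood endothelial genes, 9 passed that level without JunBΔep replicate 2, against 1 with all mice.

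Set against Cdh5 and Pecam1 of the same mouse, Tek was lower in each JunBΔep mouse than in each control. Tek was 0.470, 0.583 and 0.517 times Cdh5 in the controls and 0.246, 0.323 and 0.275 times Cdh5 in the JunBΔep mice, and it was 0.267, 0.215 and 0.304 times Pecam1 in the controls and 0.0933, 0.187 and 0.161 times Pecam1 in the JunBΔep mice. Neither ratio overlapped between the groups. Of the 32 other blood endothelial genes, 17 gave a ratio of Tek to that gene that was lower in all 3 JunBΔep mice than in all 3 controls. Of the rest, 0 gave one that was higher, and 15 gave ratios that overlapped. For each other member, 0 or 1 of the 32 ratios were lower and 0 to 3 higher. Tek was followed here as the member with the smallest p in the same data. No share over all genes was computed for these ratios, so the counts carry no test. When each mouse was centred on the mean log2 value of those 32 genes, a scaling chosen after the data were seen, Tek lay at -0.17, -0.36 and 0.08 in the controls and -1.15, -0.69 and -0.61 in the JunBΔep mice. It was the 1 member of 9 tested with no overlap on this scale, where 3.85% of all genes tested were lower in all JunBΔep mice and 1.15% higher. Its log2 fold change there was -0.67 ± 0.55 (SE, adjusted p = 0.987), and 0 of 9 members passed the test, where 0.664% of all genes did. This scaling shifts every gene by the same amount and moved the median log2 fold change of all genes from 0.03 to 0.25. Tek therefore lay as far below that median as without the scaling. The skeletal muscle markers, which summed to 20366 to 28707 FPKM in the controls and 1866 to 4430 FPKM in the JunBΔep mice, also separated the groups, with 1 of 15 at 0 in the library labelled JunBΔep replicate 0 and in JunBΔep replicate 1, and their part in the level of Tek was not tested.

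**Figure D3:**
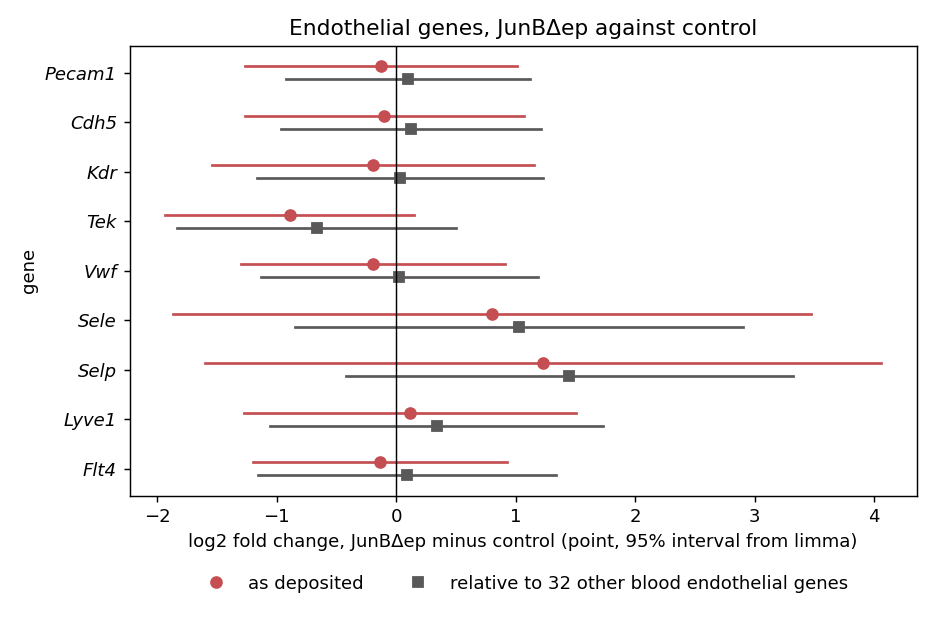
Log2 fold change of JunBΔep against control mice (horizontal axis) for the 9 tested members, with 95% intervals from limma, on the deposited FPKM values (circles) and after centring each mouse on 32 other blood endothelial genes (squares). Every interval includes 0, the point of Tek is furthest to the left at -0.89 and -0.67, and the intervals of Sele and Selp are the widest.

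The inducible selectins showed another pattern, with 1 library far from the rest. Sele, whose product is made by endothelial cells on cytokine stimulation, was at 1.32, 0.844 and 0.697 FPKM in the controls against 14.8, 0.284 and 0.804 FPKM in JunBΔep skin. The library labelled JunBΔep replicate 0 stood at 15.5 times the control mean, JunBΔep replicate 1 was the lowest of all, and JunBΔep replicate 2 lay inside the control range. Selp, whose product is stored in endothelial and platelet granules, was at 2.74, 1.71 and 1.09 FPKM in the controls against 31.2, 0.692 and 3.37 FPKM in JunBΔep skin. Again the library labelled JunBΔep replicate 0 stood apart, at 16.9 times the control mean. The log2 fold changes of 0.80 ± 1.10 (SE, adjusted p = 0.805) for Sele and 1.23 ± 1.16 (SE, adjusted p = 0.735) for Selp were about as large as their SE. Without that 1 library the values became -0.50 for Sele and -0.0674 for Selp, and with control replicate 0 left out as well they were -0.33 for Sele and 0.20 for Selp. With a block on the series of sample title numbers they were 1.52 for Sele (adjusted p = 0.570) and 2.00 for Selp (adjusted p = 0.557).

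The selectins were also high beside Pecam1 of the same library. Sele was 0.583 times Pecam1 in the library labelled JunBΔep replicate 0 and 0.0184 to 0.0478 times Pecam1 in the other 5 mice. Selp was 1.23 times Pecam1 in that library and 0.0528 to 0.0994 times Pecam1 in the other 5. Of the 32 other blood endothelial genes, 5 exceeded every control in that library and 19 lay below every control. Sox7, a transcription factor chosen after its values were seen, was the furthest above, and it was at 34.0 FPKM against 4.45 to 6.69 FPKM in the controls. The selectins kept closer proportions to each other, with Selp at 2.08, 2.03 and 1.56 times Sele in the controls and 2.11, 2.44 and 4.19 times Sele in the JunBΔep mice. Of the 8 platelet markers tested 0 passed the limma test, and 1, Gp1ba, had an unadjusted p under 0.05, in the direction of lower expression (6.13% of all genes). The list of 9 summed to 81.2 FPKM in the library labelled JunBΔep replicate 0, within the control range of 48.1 to 92.4 FPKM. Pf4, the most abundant of them, was at 61.7 FPKM there against 37.9 to 70.4 FPKM in the controls. In the same library 5 of 8 neutrophil markers lay over every control, and Camp and Ltf lay within the control range. S100a9 was listed at 0, which may be a missing value, as given above. The part of the neutrophil markers in the selectin levels was not tested.

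Sele and Selp are neighbours on chromosome 1 of the mm9 build, Sele from 165978365 to 165987808 and Selp from 166045395 to 166080157, both on the plus strand. Since they shared the high library, the 250 bases before their transcript starts are shown, with those of Tek on chromosome 4 (94405980 to 94541667, plus strand), the member with the smallest p. They are RefSeq promoter windows of GRCm38.p6, each found once in mm9 by exact match and given with mm9 positions, 5′ to 3′. Capitals mark motif letters found on either strand. The AP-1 letters searched were TGANTCA. Those of NF-kB were GGNNTTTCC. For ETS factors AGGAAG was searched, and the TATA box was searched as TATAAA.
Sele promoter, chr1:165978115-165978364, plus strand: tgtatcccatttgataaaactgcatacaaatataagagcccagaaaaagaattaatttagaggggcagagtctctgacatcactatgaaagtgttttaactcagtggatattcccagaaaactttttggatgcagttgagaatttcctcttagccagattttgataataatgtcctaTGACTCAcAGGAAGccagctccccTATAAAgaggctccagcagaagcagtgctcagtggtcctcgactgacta
Selp promoter, chr1:166045145-166045394, plus strand: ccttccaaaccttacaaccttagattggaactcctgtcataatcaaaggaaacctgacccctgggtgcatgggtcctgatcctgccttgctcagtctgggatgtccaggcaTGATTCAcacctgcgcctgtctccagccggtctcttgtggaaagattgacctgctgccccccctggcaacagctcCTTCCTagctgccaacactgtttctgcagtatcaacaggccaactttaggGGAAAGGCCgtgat
Tek promoter, chr4:94405730-94405979, plus strand: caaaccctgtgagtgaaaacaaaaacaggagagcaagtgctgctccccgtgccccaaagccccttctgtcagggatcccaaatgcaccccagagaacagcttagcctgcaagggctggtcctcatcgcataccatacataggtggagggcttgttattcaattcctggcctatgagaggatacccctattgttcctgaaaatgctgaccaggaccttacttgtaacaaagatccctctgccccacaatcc
In the Sele window an AP-1 match TGACTCA starts at -73 from the transcript start, an ETS match at -65 and a TATA match at -49. In the Selp window an AP-1 match TGATTCA starts at -139, an ETS match on the minus strand (CTTCCT) at -64 and an NF-kB match on the minus strand (GGAAAGGCC) at -14. None of these matches overlaps another, and the Tek window holds none of the 4 motifs. Of 32851 promoter windows of the same length, 6.75% hold the AP-1 letters, 4.93% the NF-kB letters, 29.5% the ETS letters and 12.4% the TATA letters. RefSeq windows were matched for 6 of the 10 members. Of the other 3, those of Kdr and Flt4 hold none of the 4 motifs and 1 of Prox1 holds TATA letters at -34. A match describes letters and not a bound site. Only the letters given above were searched, so sites spelled otherwise are not marked. The lack of an NF-kB match in the Sele window therefore does not show that it holds no NF-kB site.

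The genes of endothelial activation and leukocyte adhesion were read beside the selectins. Of 15 tested, 0 passed the limma test and 0 had an unadjusted p under 0.05 in either direction. The log2 fold change was above 0 for 12 of them, with a median of 0.45, and 2, Tnfaip3 and Madcam1, had all JunBΔep mice above all controls (5.62% of all genes), the latter at under 1 FPKM. The library labelled JunBΔep replicate 0 exceeded every control for 12 of 15 (37.4% of all genes), with a median difference from the control mean of 1.39, against -0.35 and 0.14 in JunBΔep replicates 1 and 2. The most abundant were Nfkbia, the NF-kB inhibitor that NF-kB itself induces, at 83.3, 120 and 86.8 FPKM in the controls against 226, 107 and 179 FPKM in JunBΔep skin, and Tnfrsf1a, a TNF receptor, at 91.2, 99.3 and 79.4 FPKM against 160, 88.5 and 107 FPKM. The log2 fold change of Nfkbia, 0.77 ± 0.32 (SE), had the smallest limma p of the list (adjusted p = 0.666). The neutrophil chemokine Cxcl1 reached 221 FPKM in the library with the high selectins and stood at 0.722 to 3.69 FPKM in the other 5 mice. Icam1 and Vcam1, the adhesion molecules on which rolling leukocytes arrest, were chosen after their values were seen. Icam1 was at 13.1, 12 and 9.80 FPKM in the controls against 34.1, 8.96 and 13.2 FPKM in JunBΔep skin, with the same library highest. Vcam1 was at 3.70, 1.72 and 1.73 FPKM in the controls against 3.64, 0.860 and 3.01 FPKM in JunBΔep skin, so that library did not stand apart for Vcam1.

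Among the lymphatic genes, Lyve1 was at 7.68, 2.91 and 4.23 FPKM in the controls against 11.1, 2.61 and 4.16 FPKM in JunBΔep skin. The groups overlapped, and the highest values were those of the library labelled JunBΔep replicate 0 and of control replicate 0 (log2 fold change 0.12 ± 0.57 SE, adjusted p = 0.95). Macrophages of skin also express Lyve1. The 11 macrophage markers summed to 502, 291 and 303 FPKM in the controls against 460, 133 and 308 FPKM in JunBΔep skin, which puts the same pair of libraries highest and the same one lowest, and their part in Lyve1 was not tested. None of the macrophage markers passed the limma test, 3 (Folr2, Timd4 and Marco) had an unadjusted p under 0.05 in the direction of lower expression (6.13% of all genes), and all 11 had a log2 fold change below 0, with a median of -0.63. Flt4, the receptor for VEGF-C and VEGF-D, was at 1.37, 1.75 and 0.971 FPKM in the controls against 2.20, 0.414 and 1.39 FPKM in JunBΔep skin. The JunBΔep mice lay above, below and inside the control range (log2 fold change -0.13 ± 0.44 SE, adjusted p = 0.922). Flt4 was 0.252, 0.401 and 0.268 times Kdr in the controls and 0.851, 0.205 and 0.143 times Kdr in the JunBΔep mice, so the balance of the VEGF receptors was highest and lowest within the JunBΔep group.

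Prox1, the transcription factor that specifies lymphatic identity and that hepatocytes also express, was close to the bottom of the scale. It was at 0.15, 0.0350 and 0.0358 FPKM in the controls against 0.0757, 0.0195 and 0.0289 FPKM in JunBΔep skin. The highest value was that of control replicate 0, the library with the highest hepatocyte markers. Without the filter, the limma log2 fold change was -0.08 (adjusted p = 0.786), a value that the pseudocount of 0.5 FPKM draws towards 0.

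Of 15 other lymphatic endothelial genes, 14 were tested and Ccl21a was listed at 0 FPKM in all 6 mice. None passed the limma test, 0 had an unadjusted p under 0.05 in the direction of higher expression (1.43% of all genes) and 3 in that of lower expression (6.13%). The median log2 fold change was -0.58, with 4 genes above 0 and 10 below. For 6 of the 14 all JunBΔep mice lay below all controls, where 9.16% of all genes tested did, and for 0 all lay above, where 5.62% did. Sema3d, a guidance semaphorin, was at 7.26, 5.46 and 6.41 FPKM in the controls against 0.209, 2.43 and 3.44 FPKM in JunBΔep skin (log2 fold change -1.76 ± 0.65 SE, adjusted p = 0.570). Ackr2, a chemokine scavenger of lymphatic endothelium, was at 7.15, 3.41 and 3.90 FPKM in the controls against 1.37, 1.27 and 3.36 FPKM in JunBΔep skin (log2 fold change -1.12 ± 0.42 SE, adjusted p = 0.588). Fgl2, a gene that macrophages and T cells also express, was at 12, 12 and 17.4 FPKM in the controls against 8.58, 6.18 and 11 FPKM in JunBΔep skin (log2 fold change -0.67 ± 0.27 SE, adjusted p = 0.660). The other 3 without overlap were Reln, Foxc2 and Stab2, and Lyve1, Flt4 and Prox1 did not share that pattern. Pdpn, which basal keratinocytes and fibroblasts also express and which was chosen after its values were seen, was at 12.2, 12.3 and 13.9 FPKM in the controls against 55.0, 8.90 and 12 FPKM in JunBΔep skin.

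**Figure D4:**
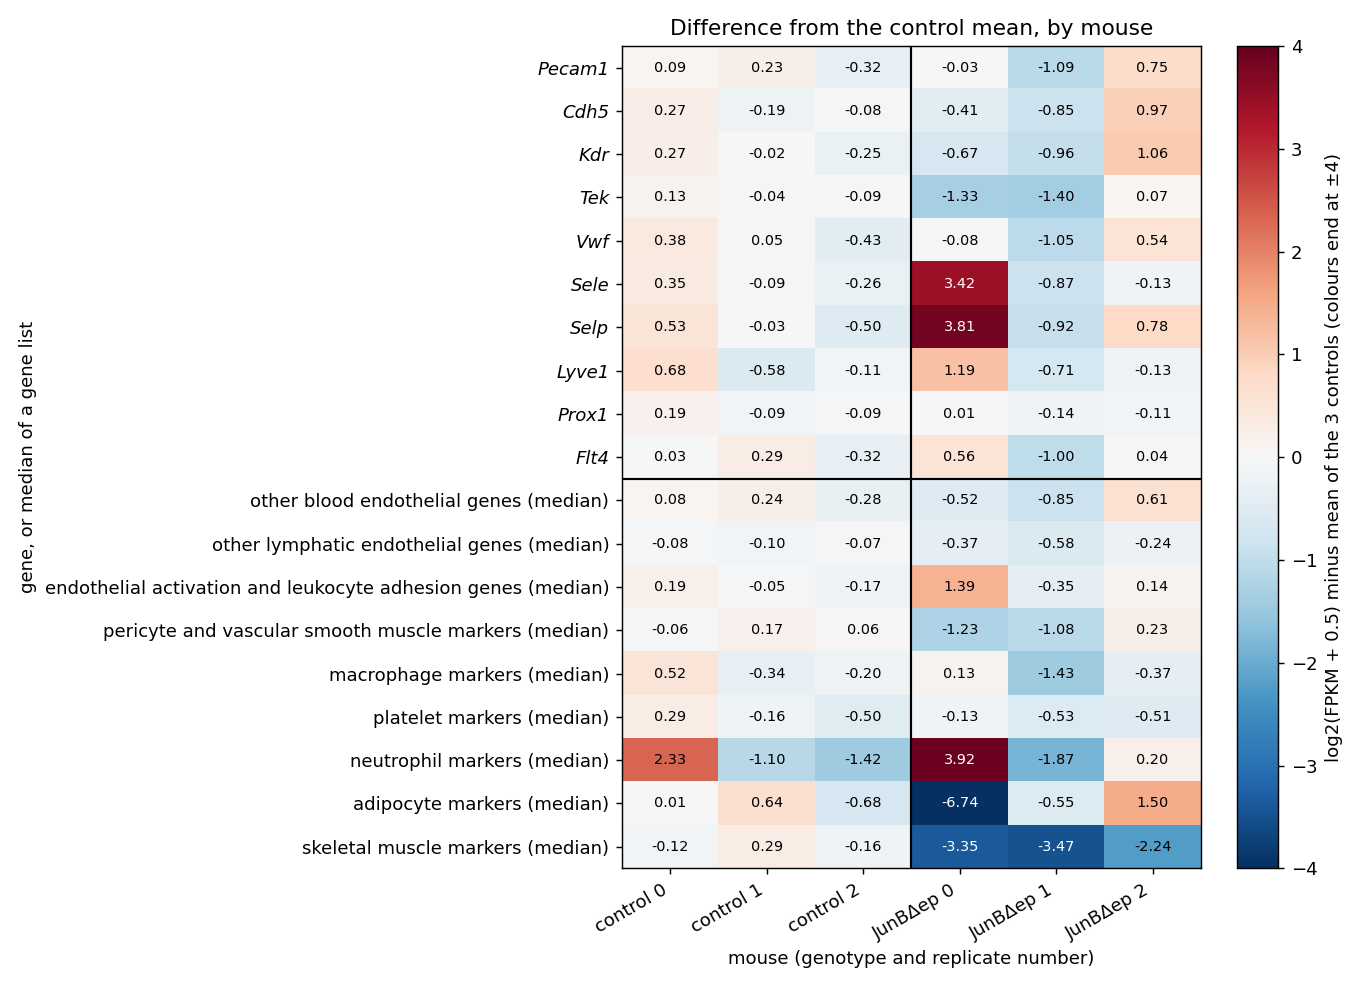
Difference of log2(FPKM + 0.5) from the mean of the 3 controls in each mouse, for the 10 members and as medians of 9 gene lists (colour and printed value). The members other than the selectins stay within -1.40 and 1.19 in all mice, while the medians of the neutrophil, adipocyte and skeletal muscle lists range from -6.74 to 3.92.

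The ligands of these receptors were tested from a list of 8 VEGF and angiopoietin genes. None was called by limma, 0 had an unadjusted p under 0.05 in either direction, 2 had a log2 fold change above 0 and 6 below, and the median was -0.38. Vegfa, the main ligand of VEGFR2, which keratinocytes make in quantity, was at 48.2, 37.0 and 43.0 FPKM in the controls against 60.5, 25.1 and 71.1 FPKM in JunBΔep skin. Vegfb, a ligand of VEGFR1 that is abundant in muscle and fat, was at 51.6, 73.9 and 48.4 FPKM in the controls against 13.2, 26.4 and 62.5 FPKM in JunBΔep skin (log2 fold change -1.01 ± 0.55 SE, adjusted p = 0.722). Figf, which encodes the VEGFR3 ligand VEGF-D, was at 11.2, 9.21 and 8.52 FPKM in the controls against 5.11, 4.97 and 11.7 FPKM in JunBΔep skin, and Vegfc, the other VEGFR3 ligand, at 2.61, 2.83 and 2.47 FPKM against 1.28, 1.37 and 2.74 FPKM. As for Tek, the pair of JunBΔep replicates 0 and 1 lay below the controls for both while JunBΔep replicate 2 did not. Vegfc and the TIE2 ligands Angpt1 and Angpt2 were chosen after their values were seen. The TIE2 ligands also overlapped between groups, and the agonist Angpt1 was at 1.76, 1.91 and 1.84 FPKM in the controls against 0.819, 1.23 and 2.61 FPKM in JunBΔep skin. Angpt2, the context-dependent antagonist released by activated endothelium, was at 1.29, 1.69 and 1.18 FPKM in the controls against 2.74, 0.764 and 1.71 FPKM in JunBΔep skin. Its highest value belonged to the library with the high selectins.

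Further receptors of the same system gave no call either. Of Flt1, Tie1, Nrp1, Nrp2 and Ptprb, 0 of 5 passed the limma test or had an unadjusted p under 0.05, and the median log2 fold change was -0.27. Tie1, the partner receptor of TIE2, was at 9.67, 10.9 and 7.06 FPKM in the controls against 7.58, 3.88 and 13.8 FPKM in JunBΔep skin, and its order of mice was nearer to that of Pecam1 than to that of Tek. Nrp2, a co-receptor for VEGF-C, went the other way between mice, at 4.96, 3.97 and 7.91 FPKM in the controls against 8.98, 20.5 and 4.87 FPKM in JunBΔep skin, with its highest value in the mouse that was lowest for every member.

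Genes of vessel segments gave no call either. Of 9 arterial genes, 0 passed the limma test or had an unadjusted p under 0.05, with a median log2 fold change of -0.17. The 7 venous genes likewise had 0 at either level, and their median was -0.42. Ackr1, the chemokine receptor of venules, was at 27.7, 27.8 and 18.4 FPKM in the controls against 18.9, 7.28 and 24.3 FPKM in JunBΔep skin. Of 9 capillary genes, 0 passed the limma test, 1 had an unadjusted p under 0.05 in the direction of higher expression (1.43% of all genes) and 0 in that of lower expression (6.13%), and the median was -0.36. That gene was Mfsd2a, a lipid transporter that liver and skin also express, at 5.45, 5.06 and 10.7 FPKM in the controls against 20.8, 25.3 and 9.21 FPKM in JunBΔep skin (log2 fold change 1.29 ± 0.46 SE, adjusted p = 0.538). The capillary genes as a list lay at a median of -2.95 in the library labelled JunBΔep replicate 0 and 1.25 in JunBΔep replicate 2, and Fabp4, Cd36 and Gpihbp1 among them are also fat genes. The 9 adipocyte markers moved with them, at a summed 21.4 FPKM in the former library and 8016 FPKM in the latter, against 1197 to 3231 FPKM in the controls and 1371 FPKM in JunBΔep replicate 1, with none at 0 in any mouse. The highest Pecam1, Cdh5, Kdr and Vwf and the highest adipocyte markers thus belonged to the same mouse, but the lowest did not, and the part of fat tissue in the endothelial levels was not tested.

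Pericytes and smooth muscle cells wrap the vessels that these genes line. Of 11 such markers, 0 passed the limma test, 0 had an unadjusted p under 0.05 in the direction of higher expression (1.43% of all genes) and 3 in that of lower expression (6.13%), and the median log2 fold change was -0.45. Des, the intermediate filament of muscle cells, was at 382, 463 and 360 FPKM in the controls against 108, 36.5 and 82.4 FPKM in JunBΔep skin (log2 fold change -2.53 ± 0.41 SE, adjusted p = 0.0551). Abcc9, the channel subunit SUR2 of pericytes and striated muscle, was at 6.57, 5.09 and 6.33 FPKM in the controls against 1.54, 1.24 and 3.74 FPKM in JunBΔep skin (log2 fold change -1.39 ± 0.38 SE, adjusted p = 0.297). Kcnj8, which forms a channel with SUR2, was at 6.41, 7.87 and 4.79 FPKM in the controls against 2.64, 1.41 and 4.84 FPKM in JunBΔep skin (log2 fold change -1.09 ± 0.42 SE, adjusted p = 0.614). Des and Abcc9 did not overlap between the groups (2 of 11, against 9.16% of all genes lower without overlap) and are also expressed in skeletal muscle, whose 15 markers separated the groups, and the part of muscle was not tested. The smooth muscle genes Tagln and Acta2 did overlap, with Acta2 at 37.8, 81.6 and 59.3 FPKM in the controls against 24.0, 50.2 and 85.5 FPKM in JunBΔep skin.

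For each member the genes with the most similar pattern over the 6 mice were looked up among genes that averaged 1 FPKM or more, by the root mean square difference of centred log2(FPKM + 0.5) values. Pecam1 was nearest to Tie1 (0.09), Gimap4 (0.10) and Arap3 (0.12), and Kdr to Plscr2, Nos3 and Cdh5 (0.15). Cdh5 was nearest to H2-L, a class I gene whose reads may be shared with its relatives, then to Nos3 (0.13) and Aqp1 (0.14). Vwf was nearest to Cd302, Mmrn2 and Lama4, at 0.12 to 0.15. Tek had other neighbours, with Nr2f2 at 0.08, Meox2 at 0.10 and Pon3 at 0.12. Nr2f2, the transcription factor of venous and lymphatic identity, was at 5.17, 5.11 and 4.25 FPKM in the controls against 1.62, 1.66 and 5.55 FPKM in JunBΔep skin. Sele was nearest to genes of leukocytes, Plek (0.11), Srgn (0.12) and Adam8 (0.13). The neighbours of Selp were less close, with Gm16548 at 0.22, Nos2 at 0.26 and Adam8 at 0.27. Lyve1 was nearest to Sdr16c6, Bin2 and Hpse, at 0.11 to 0.13, and Flt4 to Chl1, Stambpl1 and Prdx6, at 0.07 to 0.08. These are descriptions over 6 libraries of mixed tissue.

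The numbers in the sample titles fall into a lower and a higher series, the lower with control replicates 0 and 1 and the library labelled JunBΔep replicate 0, and the higher with control replicate 2 and JunBΔep replicates 1 and 2. The labels do not say what the numbers stand for. Within the lower and the higher series the difference of mean log2(FPKM + 0.5) between JunBΔep and control mice was -1.38 and -0.58 for Tek, below 0 in both. It was 3.56 and 0.43 for Selp, above 0 in both, and 3.29 and -0.24 for Sele. It was -0.80 and 0.30 for Kdr, -0.45 and 0.14 for Cdh5, -0.19 and 0.15 for Pecam1 and -0.29 and 0.17 for Vwf, so these 4 genes changed sign between the series. Lyve1 (1.13 and -0.31) and Flt4 (0.40 and -0.16) did too. Each series holds 1 mouse of one genotype, so these values have no test.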

How the data were processed

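Whole skin of 3 control and 3 JunBΔep mice was sequenced from poly(A) RNA with strand-specific libraries. Per the submitters' processing notes and the study's methods, the authors aligned reads with TopHat2 2.0.10, Bowtie 1.0.0 and SAMtools 0.1.19 to mm9, with the iGenomes annotation, and deposited FPKM values per gene and mouse. Cufflinks is among the tools they list. Whether they scaled the libraries further was not given in the sources used here. Read counts were not analysed here, so the depth behind each FPKM value is unknown and no counting interval is given. Among genes below 0.15 FPKM, 14.2% to 17.4% shared 1 ratio between a library and control replicate 0, and by it the scaling totals were 0.955 to 1.14 times that of control replicate 0.

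FPKM values were used as deposited. The 17021 genes that averaged 0.1 FPKM or more were tested on log2(FPKM + 0.5) with limma (version 3.58.1, R version 4.3.3), using an intensity trend without a block. Tests were two-sided and adjusted by Benjamini-Hochberg over those genes, at a threshold of 0.05. Fold changes on this scale understate the change of low genes. P-values set the group difference against the spread between these mice. Ratios and lists were described by counts and medians. Python 3.11.15 with pandas 2.3.3 made the tables, and matplotlib 3.10.9 drew the figures. Gene positions are those of GENCODE vM1 on mm9.

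The members and gene lists were chosen with earlier results of these data known. The genes named are the members, genes of the lists with an unadjusted p under 0.05, the most abundant genes of a list, and for each member the 3 genes nearest in pattern, with Junb as the deleted gene. Other genes, among them Icam1, Vcam1, Pdpn, Vegfc, Angpt1, Angpt2, Sox7, Krt14, Camp, Ltf and those that only illustrate a list or a count, were chosen after their values were seen. Not every gene the rule allows is named. Fabp4, Nr2f2, Nrp2, Ackr1, Plvap, Emcn, Flt1, Tie1 and Ptprb sit in more than 1 list. Fibroblast, erythrocyte and hepatocyte markers were read in the same way, with 0 of 8, 0 of 6 and 0 of 10 called and medians of -0.70, -1.79 and -2.00, as were 10 keratinocyte, 8 neutrophil and 9 adipocyte markers, with 0 called and medians of 0.05, 1.06 and -1.92. Of these 6 lists 1 gene, a fibroblast marker, had an unadjusted p under 0.05 in limma. The alternatives were other pseudocounts, filters, scalings and variance models, an adjusted p of 0.1, blocks on the replicate number and on the series of sample title numbers, each mouse left out, and control replicate 0 and JunBΔep replicate 0 left out together. Centring on 32 endothelial genes was added after the data were seen.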

Additional observations from a re-analysis of the deposited data

How the results depend on the processing

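No member passed the threshold under any of the 19 alternatives or at an adjusted p of 0.1. The count of all genes called, 235, was 0 with the replicate block, 0 with the block on the title number series, 0 with control replicate 0 and JunBΔep replicate 0 both left out, and 113 relative to the other blood endothelial genes. With each mouse left out it ranged from 0 to 254. It was 0 without any 1 of the 3 controls or JunBΔep replicate 1, and 135 without JunBΔep replicate 0. The replicate numbers are not shown to pair the mice: deviations of mice with the same number correlated at 0.12, -0.23 and -0.43, and not every mouse correlated best with its own number.

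Of 171 member values under the alternatives, 23 had the opposite sign. With control replicate 0 and JunBΔep replicate 0 both left out, the log2 fold change was 0.19 for Cdh5, 0.18 for Kdr, -0.33 for Sele and -0.0762 for Lyve1. With the title number series block it was 0.12 for Flt4, 1.52 for Sele, 2.00 for Selp and -0.98 for Tek. Relative to the other blood endothelial genes it was 0.10 for Pecam1, 0.12 for Cdh5, 0.0315 for Kdr, 0.0267 for Vwf and 0.0884 for Flt4. With 1 mouse left out it ranged from -0.56 to 0.36 for Pecam1, -0.63 to 0.28 for Cdh5, -0.82 to 0.19 for Kdr, -1.37 to -0.63 for Tek, -0.56 to 0.23 for Vwf, -0.50 to 1.64 for Sele, -0.0674 to 2.30 for Selp, -0.42 to 0.53 for Lyve1 and -0.48 to 0.30 for Flt4. Without JunBΔep replicate 1, 8 of the 9 members had a log2 fold change above 0, with a median of 0.30. The cause was not tested. Read numbers are unknown, so what depth limits cannot be given.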
